A study of Homo sapiens with 12 samples.

Results

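Mitochondrial ribosomal protein genes were followed across the 4 groups of an RNA sequencing series in EA.Hy926, an established human endothelial line obtained as a hybrid of cells from the umbilical vein and a lung carcinoma line. The series asks, per its title, how copper bears on transcription driven by HIF-1. The members are the gene symbols made of MRPL or MRPS, a number and an optional A, B or C, without pseudogenes and antisense names. They came to 77 of the 51141 symbols in the table, 48 named for the large subunit (MRPL) and 29 for the small one (MRPS). All 77 had enough counts to be tested, among 14447 genes. The hypoxia group was kept in 1% oxygen for 8 h. The TEPA+hypoxia group received TEPA, a chelator of copper, at 50 µM for 16 h before another 8 h in 1% oxygen. The TEPA group received the same dose for 16 h before another 8 h at normal oxygen, and the control group is labelled with neither. Each group had 3 libraries. The labels do not say whether these were separate cultures, so p-values measure only the spread between these libraries.

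Mitochondria have their own ribosome, which makes the handful of membrane proteins of the respiratory chain and ATP synthase that mitochondrial DNA encodes. Its RNA is mitochondrial, but every one of its proteins is encoded in the nucleus, made in the cytosol and imported, so both genomes supply its parts. Copper is a cofactor of cytochrome c oxidase, whose core subunits this ribosome makes, and low oxygen changes nuclear transcription largely through the factor HIF-1.

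The libraries hypoxia 2 and 3 were unlike the remaining 10, with hypoxia 1 between. Total counts ran from 13406858 to 24778944 per library. On the first principal component, which held 76.2% of the variance, hypoxia 2 scored 126, hypoxia 3 scored 105 and hypoxia 1 scored 11.8, and every other library was below 0. Summed CPM (reads per 1e6 of the TMM-scaled library total) of the endothelial markers was 6078 to 6795 in hypoxia 2 and 3 and 3408 to 4060 elsewhere, with 11 of 12 markers detected and CLDN5 at 0 throughout. Epithelial markers summed to 15764 to 18385 in hypoxia 2 and 3 and 5667 to 7937 elsewhere, with 1 to 3 of 10 markers at 0 and CDH1 at 0 throughout. Leukocyte markers summed to 191 to 205 and 150 to 186, with PTPRC and MS4A1 among those at 0. Fibroblast and mural markers summed to 51.5 to 58.1 and 84.1 to 109, with COL3A1 and DCN at 0. Their part in the results below was not tested. Values with hypoxia 1 as the only hypoxia library are therefore given beside the main results.

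In control cells the members spanned a wide range of levels, here in CPM per kilobase of transcript. MRPL12, which sits in the stalk that recruits translation factors and is also known to bind the mitochondrial RNA polymerase, was the highest at 169 ± 24.4 CPM per kb (SD, n = 3). MRPS34, of the small subunit, followed at 138 ± 19.6 CPM per kb, and MRPL15, of the large subunit, at 119 ± 1.22 CPM per kb. The middle member, MRPL16, was at 40.4 CPM per kb. The lowest were MRPL19 at 6.02 ± 0.278, MRPL50 at 8.91 ± 0.905 and MRPS17 at 8.92 ± 0.536 CPM per kb, the last 2 not separated by their spread. MRPL12 and MRPS34 also overlapped each other within their SD. MRPL19 is the thinnest measurement of all members, with 92, 28 and 47 counts in hypoxia 1 to 3 and 94 to 203 counts in the other libraries.

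The summed level of the 77 members was 5368, 10763 and 9170 CPM in hypoxia 1, 2 and 3, and 4320, 4291 and 3758 CPM in TEPA+hypoxia 1, 2 and 3. It was 4605, 4824 and 4579 CPM in the 3 TEPA libraries and 4608, 4316 and 4929 CPM in the 3 control libraries. The 3 hypoxia libraries were thus the highest of the 12, with hypoxia 1 closer to the controls than to hypoxia 2 and 3. The 3 TEPA+hypoxia libraries lay below every TEPA library, and TEPA+hypoxia 1 alone overlapped the controls. The members' share of all counts was 0.552%, 0.830% and 0.768% in hypoxia 1 to 3, without the TMM factors, which were 0.772 in hypoxia 2 and 0.838 in hypoxia 3. In control libraries that share was 0.475%, 0.447% and 0.510%. In cultures sequenced in bulk, more or fewer cells of a type and more or less RNA per cell cannot be told apart.

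**Figure D1:**
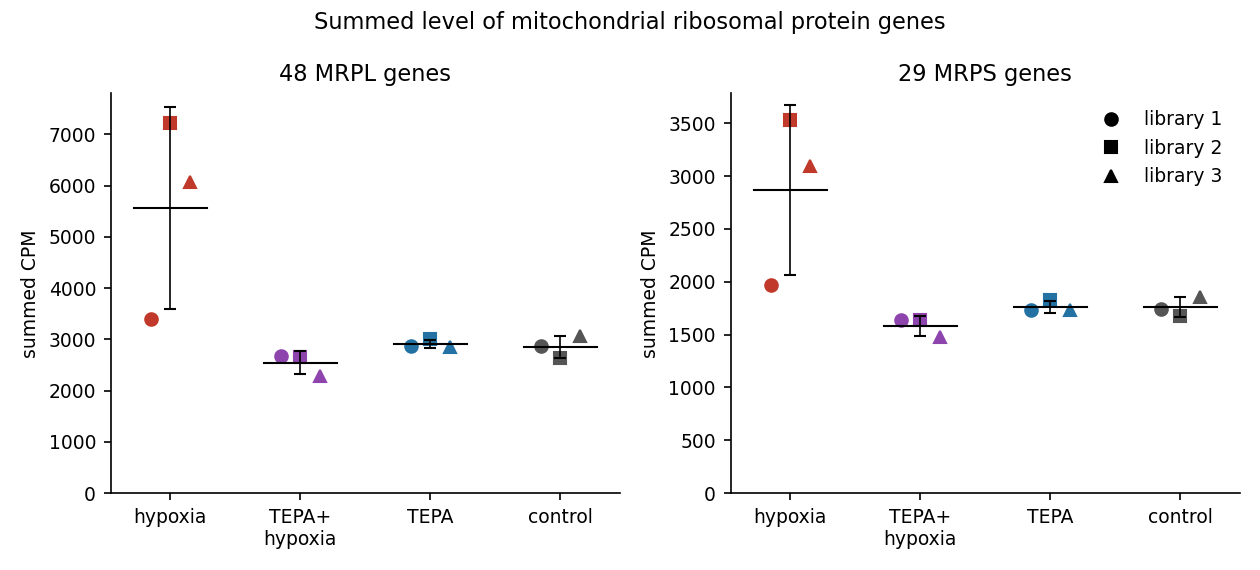
Summed CPM of the 48 MRPL genes (left) and the 29 MRPS genes (right) in each of the 12 libraries, with group means (lines) and SD (bars, n = 3). Hypoxia 2 and 3 reach 7231 and 6075 CPM for the MRPL genes, against 3397 CPM in hypoxia 1 and 2642 to 3070 CPM in the control libraries.

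The ratio of summed levels between MRPL and MRPS genes also differed in the hypoxia libraries. It was taken without correction for GC content or length, and abundant genes weigh most in the sums. The ratio of summed MRPL to summed MRPS CPM was 1.72, 2.05 and 1.96 in hypoxia 1 to 3, and 1.64, 1.63 and 1.55 in TEPA+hypoxia 1 to 3. It was 1.66, 1.64 and 1.65 in the TEPA libraries and 1.64, 1.58 and 1.65 in the control libraries. All 3 hypoxia libraries lay above the other 9. The symbols do not follow the structure in every case, since MRPS30 and MRPS18A are known to sit in the large subunit and MRPS36 is known as a part of the 2-oxoglutarate dehydrogenase complex.

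**Figure D2:**
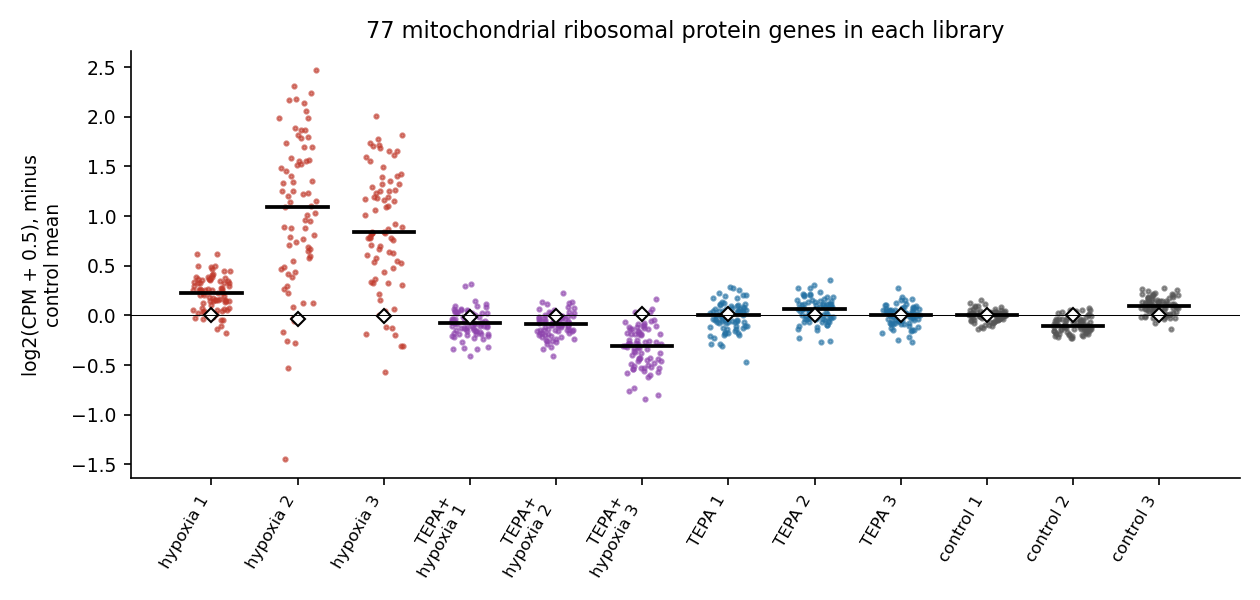
Each point is 1 of the 77 genes in 1 library, as log2(CPM + 0.5) minus the mean of the 3 control libraries. Black lines mark the members' median and open diamonds the median over all genes tested. The members' median is 0.23 in hypoxia 1, 1.09 in hypoxia 2 and 0.84 in hypoxia 3, and -0.31 in TEPA+hypoxia 3, while the median of all genes lies between -0.03 and 0.02.

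Most mitochondrial ribosomal protein genes were higher in hypoxia than in control cells. With all 12 libraries in 1 fit, 61 of 77 rose and 0 fell by the edgeR quasi-likelihood test (Benjamini-Hochberg adjusted p under 0.05), beside 29.4% of all genes tested that rose and 27.8% that fell. At an unadjusted p under 0.05, 62 were higher and 1 was lower, beside 31.9% and 31.2% of all genes. DESeq2 also called 0 lower, and limma-voom called 1, MRPL19. The log2 fold change was positive in 70 of 77, with a median of 0.75, against -0.01 over all genes tested. By library, all 3 hypoxia values exceeded all 3 control values in 58 of 77 members, beside 27.4% of all genes.

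A fit that leaves out hypoxia 2 and 3 compares hypoxia 1 alone with the controls and assumes that it varies like the other groups. It called 0 members in either direction (edgeR), beside 0.283% of all genes called higher and 0.23% called lower. At an unadjusted p under 0.05, 20 of 77 members were higher and 0 lower, beside 1527 of 15195 genes higher and 1928 lower. The direction of most members was still positive there, in 69 of 77, with a median log2 fold change of 0.22 against -0.00268 over all genes. Hypoxia 1 lay above all 3 controls in 62 of 77 members, beside 35.7% of all genes. With only the hypoxia and control libraries in the fit, edgeR again called 0 members, and it called no other gene of the table either. At an unadjusted p under 0.05 that fit had 55 members higher and 0 lower, beside 27.3% of all genes higher and 22.7% lower. Without hypoxia 1, 68 members were called. Of these, 4 fell (MRPL19, MRPL42, MRPL50 and MRPS27, named after their values were seen), beside 37.4% of all genes. The rest rose, beside 5085 of 14789 genes.

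The 6 members with the largest rise were all of the large subunit. MRPL41, a large subunit protein also described in apoptosis, had 81.9, 296 and 215 CPM in hypoxia 1 to 3 and 51.2, 45.2 and 64.5 CPM in control 1 to 3 (log2 fold change 1.88 ± 0.35, SE from the fit, with adjusted p = 0.00601 by edgeR). MRPL23, at the mouth of the tunnel through which the new protein leaves, had 69.7, 271 and 193 CPM in hypoxia and 54.6, 47.1 and 62.6 CPM in control (1.70 ± 0.36). In both genes the hypoxia values did not overlap the controls, but hypoxia 1 was far closer to them than to hypoxia 2.

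MRPL54, a large subunit protein found in mitochondria and not in bacterial ribosomes, had 40.6, 142 and 99.7 CPM in hypoxia and 29.7, 25.2 and 34.7 CPM in control (1.65 ± 0.36). MRPL52, likewise without a bacterial counterpart, had 56.0, 180 and 131 CPM in hypoxia and 40.0, 36.3 and 42.2 CPM in control (1.63 ± 0.31). MRPL27, whose bacterial relative reaches to the catalytic centre, had 49.2, 169 and 129 CPM in hypoxia and 37.3, 34.0 and 41.1 CPM in control (1.63 ± 0.34). All 3 had the order control, hypoxia 1, hypoxia 3, hypoxia 2, and so did the sixth, MRPL55 (log2 fold change 1.57 ± 0.32). With hypoxia 1 alone the log2 fold changes of these 6 were 0.61 for MRPL41, 0.35 for MRPL23, 0.44 for MRPL54, 0.50 for MRPL52, 0.39 for MRPL27 and 0.47 for MRPL55, and none was called.

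**Figure D3:**
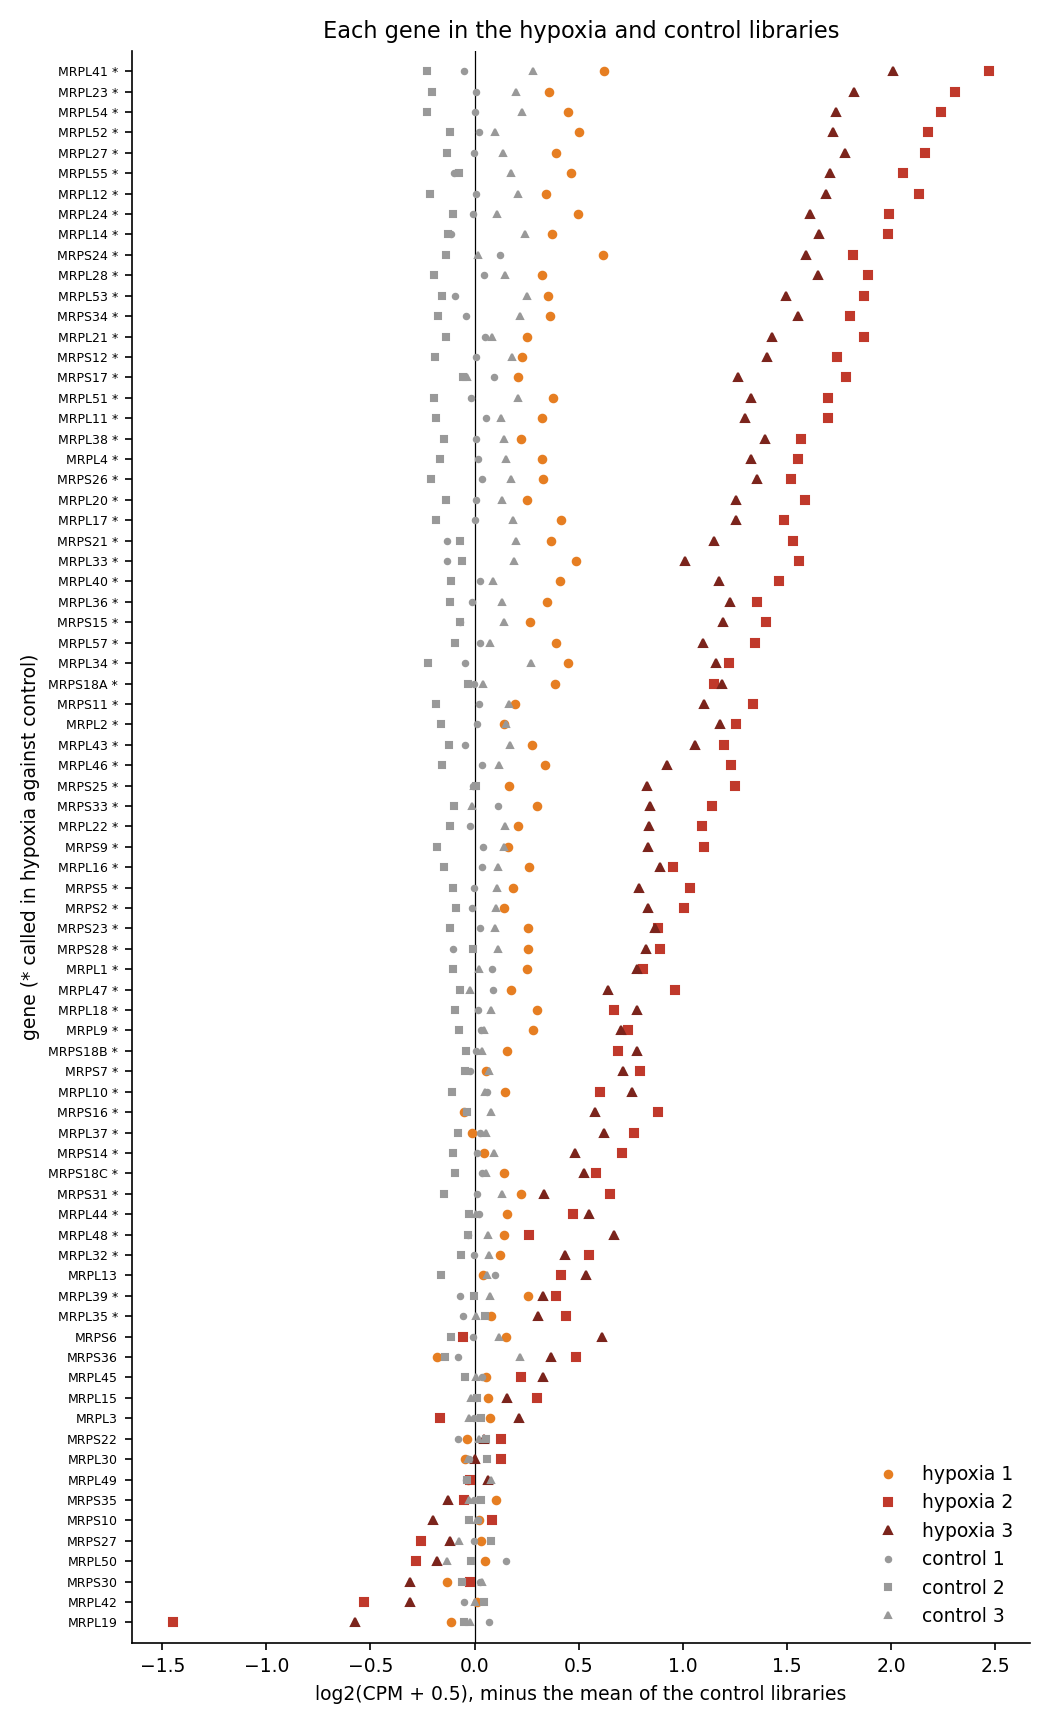
Every member in the 3 hypoxia libraries (colours) and the 3 control libraries (grey), as log2(CPM + 0.5) minus the mean of the control libraries, ordered by the fitted log2 fold change from MRPL41 (1.88) to MRPL19 (-0.66). Stars mark the 61 called members. Hypoxia 1 lies between the controls and hypoxia 2 and 3 in most genes, and the 7 genes with a negative fold change are at the bottom.

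The called members with the smallest rises, listed here, were also named for the large subunit, all but MRPS31. MRPL35 had 68.2, 87.8 and 79.8 CPM in hypoxia and 62.1, 67 and 65 CPM in control (log2 fold change 0.28 ± 0.10, adjusted p = 0.0374, edgeR). MRPL39 was at 24.3, 26.7 and 25.6 CPM in hypoxia and 19.3, 20.3 and 21.4 CPM in control (0.33 ± 0.10), with all 3 hypoxia libraries above the controls and close to each other. MRPL32, MRPL48, MRPL44 and MRPS31 had log2 fold changes of 0.38 to 0.42. The 7 members with negative values were not called: MRPS35 (-0.02), MRPS10 (-0.03), MRPS27 (-0.11), MRPL50 (-0.14), MRPS30 (-0.15), MRPL42 (-0.26) and MRPL19 (-0.66), of which MRPS10, MRPS27 and MRPL42 are named after their values were seen. MRPL42 had 55.5, 37.9 and 44.2 CPM in hypoxia and 53.1, 56.8 and 55.1 CPM in control, so hypoxia 2 and 3 lay below the controls and hypoxia 1 among them. With GC content and length corrected, as described further on, MRPS35 (0.23), MRPS10 (0.33), MRPS27 (0.33) and MRPL50 (0.55) were instead called higher.

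Promoters of 6 members are shown because some of them share motifs and differ in response. The letters come from the RefSeq promoter table (GRCh38.p14), which held 68 of the 77 members, and run 5′ to 3′ on the gene's strand from 100 bases before the annotated start through the first 20 bases of the transcript. Capitals mark CCGGAAG, the core bound by ETS factors such as GABP, and AAGATGGCG, the core bound by YY1, each searched on both strands. GABP and YY1 are known regulators of nuclear genes for mitochondrial proteins.
MRPL52, chr14:22829787-22829906, plus strand: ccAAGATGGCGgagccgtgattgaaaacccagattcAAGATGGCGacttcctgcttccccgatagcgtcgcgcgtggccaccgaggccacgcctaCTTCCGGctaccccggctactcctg
MRPL27, chr17:50373165-50373284, minus strand: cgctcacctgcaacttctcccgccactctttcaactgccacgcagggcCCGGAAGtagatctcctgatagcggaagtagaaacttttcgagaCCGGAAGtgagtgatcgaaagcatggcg
MRPL41, chr9:137551779-137551898, plus strand: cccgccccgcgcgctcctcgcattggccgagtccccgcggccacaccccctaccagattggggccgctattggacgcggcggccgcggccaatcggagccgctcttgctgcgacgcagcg
MRPS18A, chr6:43687772-43687891, minus strand: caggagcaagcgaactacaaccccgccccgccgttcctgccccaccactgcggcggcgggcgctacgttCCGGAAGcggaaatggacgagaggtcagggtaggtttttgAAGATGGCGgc
MRPS10, chr6:42217842-42217961, minus strand: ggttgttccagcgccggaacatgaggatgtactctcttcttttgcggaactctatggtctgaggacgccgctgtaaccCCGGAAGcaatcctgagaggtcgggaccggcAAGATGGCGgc
MRPL42, chr12:93467414-93467533, plus strand: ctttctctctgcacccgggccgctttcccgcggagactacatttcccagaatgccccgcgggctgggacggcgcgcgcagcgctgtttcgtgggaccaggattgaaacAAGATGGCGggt

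MRPS18A and MRPS10 carry the same pair of motifs in the same order, with AAGATGGCG at base 10 of the transcript in both and CCGGAAG 31 and 22 bases before the start, and their log2 fold changes in hypoxia were 0.96 ± 0.18 and -0.03 ± 0.11. They are 2 of the 4 members with both motifs, chosen after their values were seen. MRPL52 and MRPL38, the other two, rose by 1.63 and 1.17, so 3 of the 4 were called, and MRPS10 too was called higher (0.33) with the GC and length correction. MRPL41, with the largest value, has neither motif in the window searched. Over that whole table window, most of which lies before the start, CCGGAAG was in 28 of 68 members (41.2%), against 10.7% of 27305 promoters and 19.1% of the promoters of 9568 tested genes. AAGATGGCG was in 13 of 68 (19.1%), against 1.85% of all promoters and 4.04% of those of tested genes. GCATGCGC, part of the NRF1 site, was in 6 of 68 (8.82%), against 3.27% of all promoters and 5.68% of those of tested genes. ACGTG, the core of the hypoxia response element and also part of the E-box, was in 19 of 68 (27.9%), against 21.6% of all promoters and 27.2% of tested genes. TATAAA was in 2 of 68 (2.94%), against 5.59% of tested genes. The median log2 fold change in hypoxia was 1.02 in the 28 members with CCGGAAG and 0.71 in the 40 without it, with 24 of 28 and 31 of 40 called. It was 0.76 in the 13 members with AAGATGGCG and 0.81 in the 55 without it, with 9 of 13 and 46 of 55 called. These matches describe the letters of the window and are no test of binding. The medians and calls by motif are without the GC and length correction. Transcript GC content and length were not compared between members with and without a motif. MRPL10, MRPL13, MRPL15, MRPL2, MRPL21, MRPL23, MRPL35, MRPS28 and MRPS36 were not in the table.

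By place in the ribosome, the counts restate the 61 of 77 members called higher, beside the 29.4% of all genes, and no group was tested against the others. The 3 stalk proteins all rose, with MRPL12 at 219, 758 and 556 CPM in hypoxia and 173, 149 and 199 CPM in control (log2 fold change 1.56 ± 0.33, adjusted p = 0.00602, edgeR). MRPL11 rose by 1.21 and MRPL10, which holds the copies of MRPL12 to the ribosome, by 0.52. Around the tunnel exit, 4 of 5 rose: MRPL23 (1.70), MRPL24 (1.49), MRPL17 (1.11) and MRPL22 (0.76). The fifth, MRPL45, which anchors the ribosome to the inner membrane, had 92.3, 104 and 112 CPM in hypoxia and 91.0, 85.9 and 89.2 CPM in control, and its log2 fold change of 0.21 did not pass the test.

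In the central protuberance, the crown of the large subunit, 5 of 5 rose, from MRPL48 (0.38) and MRPL18 (0.60) through MRPL46 (0.88) and MRPL40 (1.08) to MRPL38 (1.17). Of the members listed together for the tRNA path and catalytic core, a loose grouping, 4 of 5 rose, among them MRPL4 (1.16), MRPL2 (0.95) and MRPL16 (0.74). MRPL3 had 94.8, 80.1 and 104 CPM in hypoxia, on both sides of the 88.3 to 91.9 CPM of the controls (0.05). Of the decoding and mRNA channel proteins 4 of 4 rose: MRPS24 (1.47), the decoding protein MRPS12 (1.25), MRPS5 (0.71) and MRPS2 (0.70, but -0.13 and not called with the GC and length correction). Of the small subunit head proteins 4 of 5 rose and by less, with a median of 0.44, for example MRPS7, whose bacterial relative starts the assembly of the head, by 0.56. Of the other members listed for their role, MRPS34 rose by 1.36, MRPS28, of the small subunit, by 0.69, MRPS16 by 0.52 and the large subunit protein MRPL1 by 0.64. MRPS22, mutated in a mitochondrial disease, was level at 45.3, 50.9 and 48 CPM in hypoxia and 44.1, 48.3 and 47.3 CPM in control (0.05, not called).

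The 3 homologues of one bacterial protein, S18, took different sizes. MRPS18A had 33.5, 57.2 and 58.7 CPM in hypoxia and 25.4, 24.9 and 26.2 CPM in control, MRPS18B rose by 0.57 and MRPS18C by 0.43 on the log2 scale. All 3 passed the test (edgeR, adjusted p = 0.00601, 0.00888 and 0.0143 in that order). With hypoxia 1 alone, no member of any of these role groups was called higher. Their median log2 fold changes there were 0.32 for the stalk, 0.35 for the tunnel exit, 0.30 for the central protuberance, 0.26 for the catalytic core, 0.20 for decoding, 0.05 for the small subunit head and 0.15 for the S18 homologues.

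The size of change went with the transcripts' GC content. Across the 77 members, the Spearman correlation of the deviation from control with GC content was 0.56 in hypoxia 1, 0.67 in hypoxia 2 and 0.74 in hypoxia 3, and across all genes 0.38, 0.53 and 0.55, given as a description of genes that share libraries. It was -0.13, -0.11 and -0.35 for the members in the TEPA+hypoxia libraries. In TEPA 1 and 2, where the summed level was near control, it was 0.45 and 0.48, in TEPA 3 it was 0.00037, and it ran from -0.56 to 0.54 in the control libraries. Called members had a median GC content of 52.3% and those not called 43.6%, while all 77 had 49.1% and all genes tested 49.4%. Members are short, with a median transcript of 1286 bases against 2640 bases over all genes.

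Other genes with such transcripts were also called higher more often. In the third of members with the highest GC content, 24 of 25 rose, and 52.9% of all 4855 genes in that GC range rose. In the third with the lowest GC content 16 of 26 rose, and 10.2% of 4781 genes in that range. In the third with the shortest transcripts 22 of 26 rose with a median log2 fold change of 1.04, and 62.5% of 1281 genes of that length rose with a median of 0.84. In the third with the longest transcripts 16 of 25 rose with a median of 0.44, against 24.8% of 7704 genes and a median of -0.10.

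After correction for GC content and length in each library, the median over all genes moved to 0.11 and the members' median was 0.38. There, 52 members rose and 2 fell, MRPL19 and MRPL42, beside 29.3% of genes that rose and 16.2% that fell. Of the 61 members called without the correction 46 remained called. MRPL41 then had a log2 fold change of 0.54, MRPL52 1.06 and MRPL27 0.81, all still called, while MRPL4 (0.05), MRPS34 (0.10) and MRPL12 (0.27) were not. With the correction and without hypoxia 2 and 3, a combination chosen after seeing the data, 2 members were called higher, MRPL57 (0.42) and MRPS25 (0.42), beside 1.15% of all genes.

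**Figure D4:**
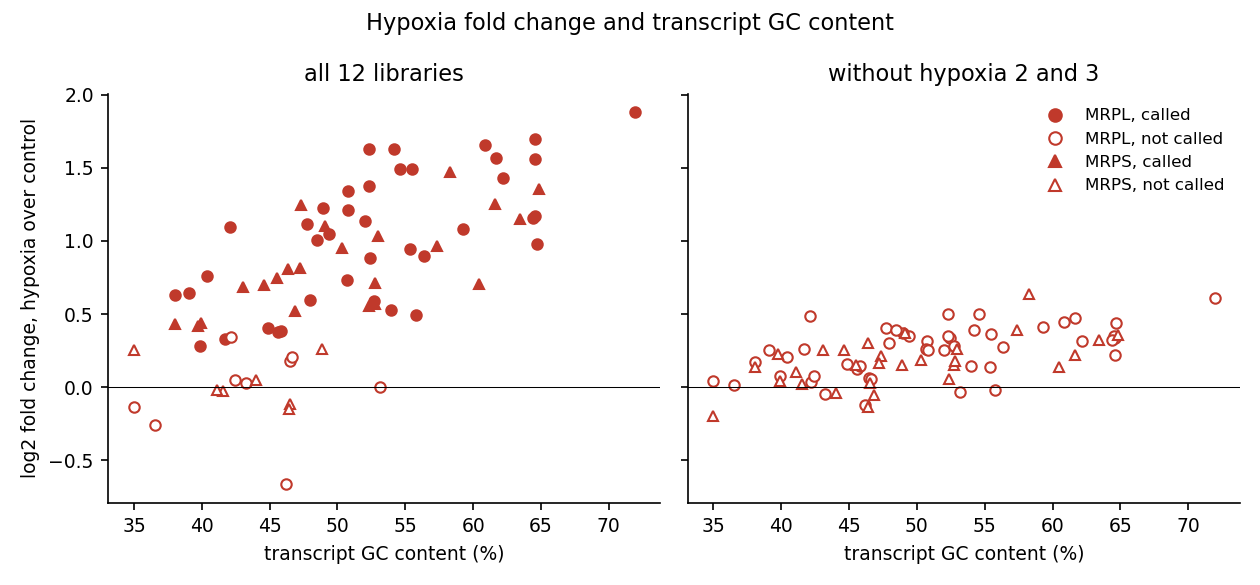
Log2 fold change of each member, hypoxia over control, against the GC content of its transcript, with all 12 libraries (left) and without hypoxia 2 and 3 (right). Filled symbols are called members, circles MRPL and triangles MRPS. Values reach 1.88 on the left, and on the right all lie between -0.19 and 0.64 and none is called.

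With TEPA present, low oxygen gave another picture: most members were slightly lower in TEPA+hypoxia than in TEPA cells, and none passed the test. The edgeR quasi-likelihood test called 0 of 77 in either direction, beside 0.0623% of all genes higher and 0.0346% lower. At an unadjusted p under 0.05, 2 members were lower and 0 higher, beside 2.98% of all genes lower and 4.71% higher, and DESeq2 and limma-voom each called 0. The log2 fold change was negative in 67 of 77, with a median of -0.19 against 0.00371 over all genes. In 37 of 77 members every TEPA+hypoxia library was below every TEPA library, beside 18.0% of all genes, and in 2 members every library was above, beside 12.5%.

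The 4 members with the smallest p show how small these differences were. MRPS22 had 43.2, 44.6 and 42.5 CPM in TEPA+hypoxia and 48.7, 53.8 and 51.7 CPM in TEPA (log2 fold change -0.24 ± 0.09, adjusted p = 0.528, edgeR). MRPS30, a large subunit protein despite its symbol, had 28.4, 27.0 and 29.6 CPM in TEPA+hypoxia and 34.4, 34.5 and 30.9 CPM in TEPA (-0.23 ± 0.11). MRPL44, a protein with a ribonuclease III fold, had 33.8, 32.3 and 28.3 CPM in TEPA+hypoxia and 37.3, 36.7 and 36.8 CPM in TEPA (-0.23 ± 0.12). In all 3 the groups did not overlap. MRPS24, which lines the mRNA entry, had the largest difference, with 7.40, 7.86 and 6.12 CPM in TEPA+hypoxia and 10.5, 9.48 and 10.4 CPM in TEPA (-0.51 ± 0.26, adjusted p = 0.719).

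TEPA+hypoxia 3 was the lowest of its group for the members as a whole. The median deviation from the control mean was -0.08, -0.09 and -0.31 log2 units in TEPA+hypoxia 1 to 3 and 0.00, 0.06 and 0.00 in the TEPA libraries. In the fit that leaves out hypoxia 2 and 3, whose common dispersion was 0.00850 against 0.0339 with all libraries, 1 member fell: MRPS2 (-0.33, adjusted p = 0.0311, edgeR), a small subunit protein named after its value was seen. That fit called 0.842% of all genes lower and 1.32% higher. MRPS2 also fell when hypoxia 1 was left out (-0.34, adjusted p = 0.0408). With only the TEPA+hypoxia and TEPA libraries, MRPS2 and MRPL4 fell, beside 1.07% of all genes. With the GC and length correction and without hypoxia 2 and 3, 13 fell, beside 7.1%.

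**Figure D5:**
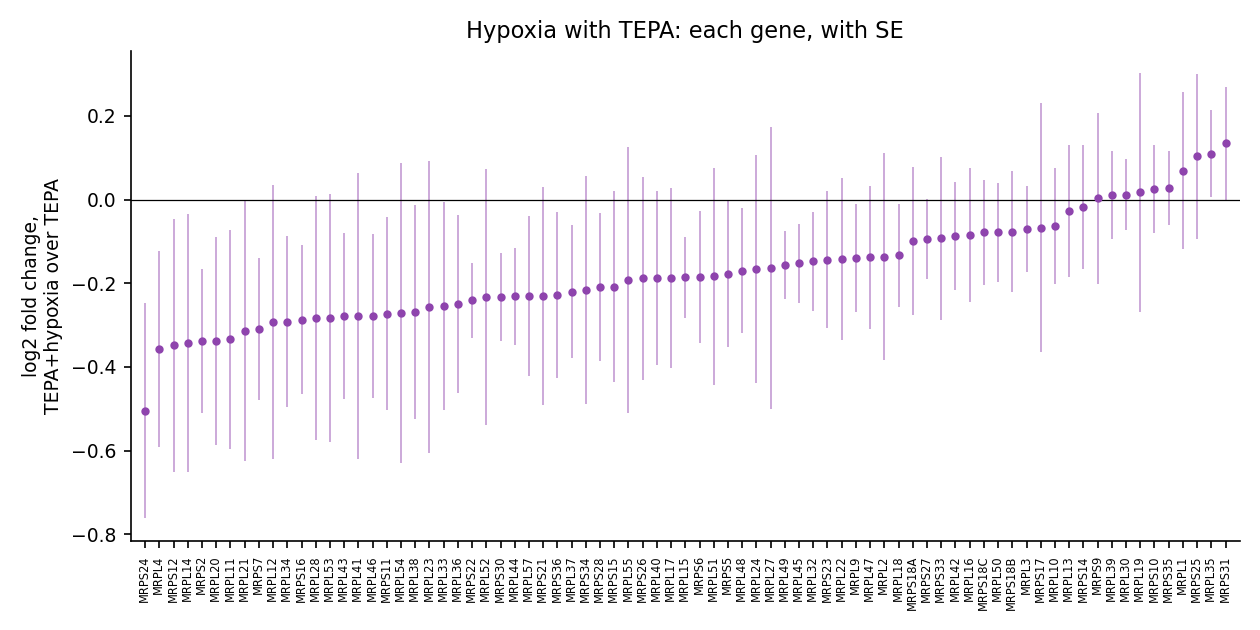
Log2 fold change of each member, TEPA+hypoxia over TEPA, with its SE from the edgeR fit of all 12 libraries, in rising order. Values run from -0.51 (MRPS24) to 0.13 (MRPS31), 67 of 77 are negative and none is called.

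TEPA alone, at normal oxygen, left the members near control. The edgeR quasi-likelihood test called 0 of 77, beside 0.0% of all genes higher and 0.0% lower, with 0 members at an unadjusted p under 0.05, beside 0.928% of all genes higher and 1.07% lower, and 0 called by DESeq2 or limma-voom. The median log2 fold change was 0.01 (0.00427 over all genes), 42 values were positive and 35 negative, and the range was -0.30 to 0.25. MRPL13, of the large subunit, had 31.6, 36.4 and 39.5 CPM in TEPA and 47.1, 39.3 and 45.8 CPM in control (-0.30), so TEPA 3 overlapped the controls. MRPS36 had 9.18, 9.54 and 9.49 CPM in TEPA and 10.9, 10.4 and 13.4 CPM in control (-0.30), without overlap. MRPS22 differed by 0.14 and MRPS35, of the small subunit, by -0.14. A missed threshold with 3 libraries a group does not show equal levels.

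In low oxygen, members were lower with TEPA than without it. Between TEPA+hypoxia and hypoxia, 65 of 77 fell and 0 rose (edgeR, adjusted p under 0.05), beside 30.6% of all genes that fell and 30.9% that rose. At an unadjusted p under 0.05, 1 member was higher, MRPL19, which DESeq2 and limma-voom both called higher. The median log2 fold change was -0.91 against 0.03 over all genes. In 66 members every TEPA+hypoxia library lay below every hypoxia library, beside 30.5% of all genes. This comparison shares the hypoxia libraries with the one against control.

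Some calls were also present with hypoxia 1 as the sole hypoxia library. In that fit, 27 of 77 fell and 0 rose, beside 7.17% of all genes that fell and 7.98% that rose, and the median was -0.38. With the GC and length correction, 60 fell and 2 rose (MRPL19 and MRPL42), beside 34.8% of genes that fell and 17.8% that rose. The members' median was then -0.57, while the median over all genes moved to -0.12.

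MRPS24 had the smallest p, with 7.40, 7.86 and 6.12 CPM in TEPA+hypoxia and 13.3, 31.2 and 26.6 CPM in hypoxia (log2 fold change -1.73 ± 0.26, adjusted p = 0.00217, edgeR). MRPS18A had 24.1, 23.7 and 21.4 CPM in TEPA+hypoxia and 33.5, 57.2 and 58.7 CPM in hypoxia (-1.11 ± 0.18). MRPL46 had 34.8, 33.2 and 29.7 CPM in TEPA+hypoxia and 51.0, 95.0 and 76.7 CPM in hypoxia (-1.19 ± 0.20). In all of these, hypoxia 1 too lay above the TEPA+hypoxia libraries. MRPL57, a short large subunit protein, had 29.7, 28.4 and 27.6 CPM in TEPA+hypoxia and 41.5, 81.1 and 68.1 CPM in hypoxia (-1.15 ± 0.19). With hypoxia 1 as the sole hypoxia library these 4 were still called lower, at -0.89 for MRPS24, -0.53 for MRPS18A, -0.64 for MRPL46 and -0.53 for MRPL57.

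The response to low oxygen with TEPA minus that without it (the interaction) was negative in 71 of 77 members, with a median of -0.90 against 0.04 over all genes. It was called lower in 53 and higher in 0 (edgeR), beside 21.5% of all genes lower and 17.3% higher. At an unadjusted p under 0.05, 60 were lower and 0 higher, beside 26.8% of all genes lower and 26.1% higher. DESeq2 called 59 lower and limma-voom 52, and both called 0 higher. MRPS24 had -1.98 ± 0.36 (adjusted p = 0.0236), MRPL57 -1.24, MRPL4 -1.51 and MRPL41 -2.16. Without hypoxia 1, 65 members were called. Of these, 2 were higher, MRPL19 and MRPL42, beside 35.6% of all genes. The rest were lower, beside 4497 of 14789 genes.

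The count of 53 depended on single libraries. It was 0 without control 1, without control 2, without hypoxia 3, without TEPA 2 or without TEPA+hypoxia 3, and in each of these 5 fits 0.0% of all genes were called lower, so the threshold was lost for every gene of the table. The members' median stayed between -0.88 and -0.78 in them, and 55 to 58 members were lower at an unadjusted p under 0.05, beside 22.3% to 23.5% of all genes. Without hypoxia 2 and 3 together the count was 0 too, again beside 0.0% of all genes. There the median was -0.38 and 39 members were lower at an unadjusted p under 0.05, beside 12.1% of all genes. With the GC and length correction 37 were lower, beside 17.4% of genes lower and 5.87% higher, with a median of -0.52 and a median over all genes of -0.12. In that corrected fit 57 were lower at an unadjusted p under 0.05, beside 29.1% of all genes.

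Proteins of the same ribosome that carry another symbol did not all go with the members in hypoxia. Of 6 tested, 4 rose and 1 fell: GADD45GIP1, of the large subunit, had 194, 753 and 552 CPM in hypoxia and 139, 104 and 153 CPM in control (log2 fold change 1.92). AURKAIP1 rose by 1.69, CHCHD1 by 1.12 and ICT1, a peptidyl-tRNA hydrolase built into the large subunit, by 0.88. PTCD3, of the small subunit, fell to 50.7, 17.3 and 26.6 CPM in hypoxia, against 66.4, 66.4 and 58.9 CPM in control (-1.01, adjusted p = 0.0116, edgeR). DAP3 was not called (0.13). With hypoxia 1 alone none of the 6 was called, and with the GC and length correction 3 of 5 tested rose and 0 fell.

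The rest of the mitochondrial translation machinery was more divided. Of 18 translation factors 8 rose and 3 fell, with the elongation factor TUFM at 1.31 and SLIRP, an RNA-binding partner of LRPPRC, at 1.45, and LRPPRC itself at -0.60 and the elongation factor GFM1 at -1.78. Of 26 assembly and rRNA modification factors 14 rose and 3 fell, among them MALSU1 (1.11), MRM1 (1.47) and FASTKD2 (-1.15). Of 19 mitochondrial aminoacyl-tRNA synthetases and amidotransferase subunits 5 rose and 6 fell, with a median of -0.06. Of 11 genes of mitochondrial transcription and DNA maintenance 2 rose and 2 fell, POLRMT at 0.70 and TFAM at -0.66. Of 7 tested regulators 1 rose, ESRRA (0.70), and 4 fell: GABPA (-1.80), YY1 (-1.37), NRF1 (-0.38) and GABPB1 (-0.38). PPARGC1A had 0 counts in all libraries. These counts are without the GC and length correction. All of these lists are set against the same 29.4% and 27.8% of all genes, and TEPA+hypoxia against TEPA had 0 calls in each of them by edgeR. With hypoxia 1 alone, 1 synthetase was called lower and no other gene of these lists was called in hypoxia against control.

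Several members share sequence or position with other genes, and how the authors counted such reads is not stated in the labels. Exons of 41 of 77 members overlap another annotated gene, 16 on the same strand and 29 on the other. Among the members with the lowest levels, MRPL19 overlaps GCFC2 on the other strand and MRPS17 overlaps NIPSNAP2 on the same strand. MRPL50 overlaps none. What such overlap did to their levels was not tested. MRPS24 shares its exons with the read-through row URGCP-MRPS24, which held 862, 2076 and 1243 counts in hypoxia and 845, 617 and 744 in control, against 205, 424 and 298 counts in hypoxia and 201, 135 and 148 in control for MRPS24 itself, so its level is uncertain. Of 104 pseudogene rows with member names 79 had 0 counts and 3 had enough to be tested. Of the members, 17 start next to a gene on the other strand (GENCODE 29). The pairs given here are examples and no count of how often such neighbours change alike. MRPL46 and MRPS11 start 34 bases apart, and rose by 0.88 and 0.95. MRPL36 and NDUFS6, a respiratory complex I gene, start 34 bases apart with 1.05 and 1.72, and MRPL47 and NDUFB5, also of complex I, 36 bases apart with 0.63 and 0.66. MRPS34 and EME2, in contrast, start 52 bases apart with 1.36 and -1.21, and MRPL27 and EME1, 6 bases apart, had 1.63 and 0.29.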

How the data were processed

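The authors deposited 1 table of raw counts per gene symbol for the 12 libraries, with whole numbers throughout and no other columns of values (0). Per the submitters' processing notes, reads were aligned with HISAT2 2.1.0 to GRCh38 and DESeq was used. For the counter, the annotation and the strand setting nothing is stated: not given in the sources used here. Per the labels' protocols, poly(A) RNA went into a directional kit.

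Counts were tested in R 4.3.3 with edgeR 4.0.16: filterByExpr by group (14447 genes, 99.9% of counts), TMM, 1 mean per group over all 12 libraries, the quasi-likelihood F-test (two-sided) and Benjamini-Hochberg adjustment over all genes, with calls at an adjusted p under 0.05. SE is that of the log2 fold change. CPM are counts over the library total times its TMM factor. CPM per kb uses a transcript of GENCODE 29, which also gave GC content, for 12613 genes (87.3% of those tested). The GC and length correction uses splines with 4 degrees of freedom per library. A floor of 3 counts is 0.118 to 0.267 CPM, for counting error only. The fit was tested on data simulated with the common dispersion of the fit without hypoxia 2 and 3 (0.00850, against 0.0339 in the main fit). Those data held no libraries that stand apart, so the test does not cover that feature of the real libraries. DESeq2 1.42.0, limma-voom (limma 3.58.1), other scalings and filters, the replicate number as a block and left-out libraries were alternatives.

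Members, gene lists, roles and promoters to show were chosen with earlier results of these data known. Members named are those called in hypoxia against control with the 6 highest and 6 lowest fold changes, the 4 smallest p in each other comparison, the 3 highest and lowest levels, a set by role, and the members of the role groups, which were listed after the files were seen. Others are said to be named after their values were seen. Same-numbered libraries were not treated as pairs in the main fit: 6 of 18 correlations of their deviations exceeded 0.1. Libraries of unlike number correlated as well, up to 0.488 for hypoxia 1 with TEPA+hypoxia 3, so these correlations cannot settle whether the numbers pair.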

Additional observations from a re-analysis of the deposited data

Results flagged for a closer look

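The response of the members to low oxygen differed with and without TEPA, by the interaction term of the edgeR quasi-likelihood fit of all 12 libraries. It was lower with TEPA in 53 of 77 members, beside 21.5% of all genes. The count was 0 when control 1, control 2, hypoxia 3, TEPA 2 or TEPA+hypoxia 3 was left out, and in those fits no gene of the table was called. The log2 interaction was -1.98 for MRPS24, -1.24 for MRPL57, -1.51 for MRPL4 and -2.16 for MRPL41, each with an adjusted p of 0.0236. No gene had a smaller adjusted p for the interaction in the fit of all 12 libraries. MRPS24 shares its exons with URGCP-MRPS24, so its level is uncertain. With the GC and length correction, MRPL4 was not called in hypoxia against control. The summed level of the members was 5368, 10763 and 9170 CPM in the hypoxia libraries, and hypoxia 2 and 3 stand apart from the other 10 libraries. Without those 2 libraries no member passed the test of the interaction, while 73 of 77 values were still negative.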

How the results depend on the processing

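Hypoxia against control: 0 higher without hypoxia 2 and 3 and with only the 2 groups compared, and 2 with the GC and length correction without hypoxia 2 and 3. Lower were 1 with limma-voom, 1 with the replicate block and 2 with the GC and length correction, alone or with the block. With 1 library left out, 48 to 64 were higher and 0 to 4 lower. Medians were 0.22 without hypoxia 2 and 3, 0.38 with the correction, 0.37 with correction and block, and 0.11 with the correction without hypoxia 2 and 3. TEPA+hypoxia against TEPA: 2 lower with only the 2 groups, 1 without hypoxia 2 and 3, 13 with the correction without hypoxia 2 and 3, and 0 to 1 with 1 library left out. TEPA+hypoxia against hypoxia: 27 lower without hypoxia 2 and 3 and 23 with the correction too. Higher was 1 under upper quartile scaling, no filter, the 1 CPM filter, DESeq2, limma-voom, the replicate block and the correction with block, 2 with the correction, and 0 to 2 with 1 library left out. Medians were -0.38 without hypoxia 2 and 3, -0.57 with the correction, -0.56 with correction and block, and -0.24 with the correction without hypoxia 2 and 3. Interaction: 0 lower without hypoxia 2 and 3, 24 with correction and block, 1 with the correction without hypoxia 2 and 3, and 0 to 63 with 1 library left out (higher: 0 to 2). Medians under the same 4 settings were -0.38, -0.52, -0.50 and -0.22. Whether the replicate numbers pair the samples could not be settled. The block left 60 higher in hypoxia against control, 64 lower in TEPA+hypoxia against hypoxia and 48 lower in the interaction. RLE size factors moved no count by over 1.5 times. The causes were not tested.

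Members changed sign in hypoxia against control. With GC and length corrected 11 of 77 did, 3 of them among the 61 called. With the correction without hypoxia 2 and 3, 21 did, 12 of them called, and without hypoxia 2 and 3, 11 did, 2 of them called. Values follow for the members whose results were tracked. With the correction without hypoxia 2 and 3, log2 fold changes were -0.031 for MRPL23, -0.040 for MRPL12, -0.060 for MRPL38, -0.10 for MRPS12, -0.089 for MRPS7, -0.11 for MRPS22, -0.022 for MRPS34, -0.30 for MRPS36, -0.016 for MRPL15 and 0.18 for MRPL50. With the correction they were -0.073 for MRPS22, -0.0086 for MRPL15 and 0.55 for MRPL50, and with the block too -0.072, -0.0084 and 0.54. Without hypoxia 2 and 3 they were -0.052 for MRPS16, -0.040 for MRPS22, -0.19 for MRPS36 and 0.044 for MRPL50. With no filter they were -0.0048 for MRPL3 and -0.0086 for MRPS22. With 1 library left out, MRPL3 ran from -0.048 (without hypoxia 3) to 0.13 and MRPS22 from -0.0098 (without hypoxia 2) to 0.068. Depth limits MRPL19 most, at 28 counts in hypoxia 2.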
